A study of Mus musculus with 18 samples.

Results

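The genes of 9 neuronal RNA-binding proteins that act on translation were followed in ribosome footprints and mRNA of cortical neurons. They are Elavl1, Elavl2, Elavl3 and Elavl4 of the ELAVL family, Fmr1, Fxr1 and Fxr2 of the FMRP family, the Pumilio gene Pum2 and the CELF gene Celf1. The genes were taken by symbol from a given list whose rule uses no measured value, but which was chosen with earlier results of these data known. All 9 were present among the 24035 named genes of the deposited tables. C57BL/6 mouse embryos had an MTOR construct electroporated into the cortex in the uterus on embryonic day 14, and on embryonic day 18 the neurons that had taken it up were isolated by FACS. The construct was the wild-type form (WT) or carried the mutation C1483Y or L2427P, so the control neurons carry an added MTOR construct as well, and neurons without a construct are not analysed here. Each of the 3 constructs has 3 footprint and 3 mRNA libraries, which makes 6 groups and 18 libraries. The labels do not say which promoter drove the constructs or whether embryos were pooled. They also do not say that the replicates came from separate litters, so p-values measure a spread between these libraries, which may be technical. In the main fits that spread was taken, for most of the 9 genes, mainly from all genes tested.

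RNA-binding proteins of these families attach to short sequence elements, mostly in 3′ untranslated regions, and set how long an mRNA lasts, where it goes and how often it is translated. The neuronal ELAVL proteins bind U-rich elements and generally stabilise neuronal mRNAs, FMRP and its relatives associate with polyribosomes and hold back translation of many synaptic mRNAs, Pumilio proteins repress their targets, and CELF proteins bind GU-rich elements and act in splicing, decay and translation. The kinase mTOR controls protein synthesis most strongly through mRNAs that start with a 5′ terminal oligopyrimidine motif, a C followed by a run of pyrimidines, a class made up largely of ribosomal protein and translation factor mRNAs.

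Bases at a listed start of each of the 9 genes are shown because many mTOR-sensitive mRNAs are marked by their first transcribed bases. Each window holds 10 bases before and 20 bases from the most upstream start in the set of start sites used, on GRCm38.p6 (the assembly of mm10). It ends in the first exon of a transcript from that start, and the first 5 bases of such a transcript are in capitals. Except for Fxr2, the annotated gene reaches further upstream than this start, for Celf1 to 90940259 against 90940397. The windows therefore need not hold the first transcribed bases.
Elavl1 (chr8:4325081-4325110, minus strand): ggggcgtgtcTGGGCcgcggggccggggag
Elavl2 (chr4:91399965-91399994, minus strand): aaggatcttaGCAGCtgctagcagcagcct
Elavl3 (chr9:22052004-22052033, minus strand): agtgcgacccAGAGCgcggagcgcgcagcg
Elavl4 (chr4:110351892-110351921, minus strand): cgagtgtgcaGCGCGggacccagtgagaag
Fmr1 (chrX:68678531-68678560, plus strand): acgtgacatcGTTTGactgtttacaggagg
Fxr1 (chr3:34020069-34020098, plus strand): gaaagtttctAGAATctcttcccagcagcc
Fxr2 (chr11:69632961-69632990, plus strand): cggcagcaggGGGAGgtggaggccgtggag
Pum2 (chr12:8674124-8674153, plus strand): cggcgcgcggGAGAAgtacgcacttcactg
Celf1 (chr2:90940387-90940416, plus strand): tggcgggcggCGCCGcggtggtacgttccc
A C followed by 4 bases that are each C or T, searched on the transcribed strand, stood at the listed start of 0 of the 9 genes. The same search found it at the start of 671 of 27025 genes (2.48%) and of 12 of 62 ribosomal protein genes (19.4%). Within 10 bases of the start it was present in 1 of the 9, Fxr1, against 25.5% of all genes and 53.2% of the ribosomal protein genes. A listed start need not be the one used in these neurons, and a missing match says only that these letters are not in the window.

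The libraries held between 7695442 and 34094913 counts for footprints (8 libraries) and between 18627076 and 53283035 for mRNA (9 libraries). Footprint library C1483Y replicate 3 was left out of every test because its values are displaced against the gene names after row 5400: its log2 values correlated with the mean of the other footprint libraries at r = 0.762 across genes up to that row and at r = 0.0479 after it. Of the 9 genes only Celf1 lies before that row. Every deposited count of footprint WT replicate 3 is a multiple of 3, by a step that the sources used here do not give. Levels are given as CPM, the counts of a gene per 1000000 counts of named genes in a library. A CPM does not correct for transcript length, and no lengths were used, so levels are compared between samples of 1 gene and not between genes. Mtor, the gene carried by the constructs, ranged from 730 to 4242 CPM in footprints and from 281 to 787 CPM in mRNA, and reads of the construct cannot be told apart from those of the endogenous gene. All 3 WT footprint libraries (3020 to 4242 CPM) lay above all 5 mutant ones (730 to 2881 CPM), so the level of the construct gene differed between the groups compared, and the part of this in the results was not tested. In mRNA the constructs overlapped for Mtor. The summed CPM of 10 projection neuron markers was 7536 to 12367 in footprints and 5162 to 7577 in mRNA, and markers of other cell types were present as well. The 10 progenitor markers summed to 1021 to 2863 CPM in footprints and 594 to 1850 CPM in mRNA, the 6 astrocyte markers to 344 to 804 and 107 to 882 CPM (S100b was at 3 or fewer counts in every library), and the 7 microglia markers to 99.6 to 310 and 43.7 to 256 CPM. The 6 markers of the oligodendrocyte lineage reached 218 and 140 CPM, the 7 interneuron markers 244 and 121 CPM, the 7 erythroid markers 174 and 86.4 CPM, and the 6 endothelial markers 58.5 and 72.7 CPM. The progenitor sum in mRNA was lower in all WT libraries (594 to 1006 CPM) than in all C1483Y (1058 to 1204 CPM) and L2427P libraries (1021 to 1850 CPM), and the interneuron sum in footprints was lower in C1483Y (18.5 and 33.1 CPM) than in L2427P (68.8 to 244 CPM). In footprints the progenitor sum was also lower in WT (1124 to 1686 CPM) than in C1483Y (1772 and 2139 CPM), while L2427P (1021 to 2863 CPM) overlapped both. The projection neuron sum in footprints was lower in WT (7536 to 11339 CPM) than in L2427P (11341 to 12116 CPM), by a narrow margin. The part of other cell types in the results was not tested. In bulk samples fewer cells of a type and less RNA per cell cannot be told apart.

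Many genes that were abundant in most libraries were at or near 0 counts in others, and the RNA-binding protein genes shared this. Over the 17 usable libraries, 18 of the 153 values of the 9 genes (11.8%) were 3 counts or fewer, against 15.3% for the 5000 genes with the highest mean CPM. In footprints 5 of 72 values were that low (6.94%, against 15.5%), and in mRNA 13 of 81 (16.0%, against 15.1%). Pum2 was the only one of the 9 above 3 counts in every library. The low values gathered in a few libraries: mRNA L2427P replicate 3 lacked 5 of the 9 genes and 52.7% of the abundant genes, and footprint WT replicate 1 lacked 3 of the 9 and 34.98%. What made the values low was not tested.

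**Figure D1:**
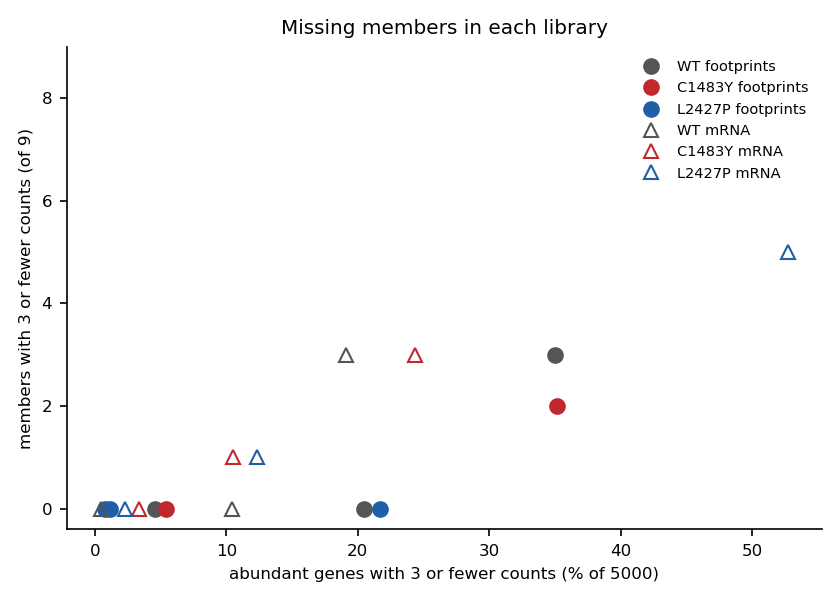
Number of the 9 RNA-binding protein genes with 3 or fewer counts in each library (y axis) against the percentage of the 5000 most abundant genes that were as low in the same library (x axis). Filled circles are footprint libraries and open triangles mRNA libraries, coloured by construct. The library at the far right, mRNA L2427P replicate 3, lacks 5 of the 9 genes and 52.7% of the abundant genes.

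Elavl1 encodes HuR, the ELAVL protein found in most cell types. Its footprint level was 289, 248 and 70.2 CPM in the WT libraries, 153 and 95.6 CPM in the C1483Y libraries, and 143, 155 and 174 CPM in the L2427P libraries. The constructs overlapped in footprints, and the spread was widest in WT (202 ± 116 CPM, SD, n = 3) and narrowest in L2427P (157 ± 15.5 CPM, n = 3). Its mRNA was 239, 196 and 92.2 CPM in WT, 191, 337 and 240 CPM in C1483Y, and 207, 64.0 and 0 CPM in L2427P. The L2427P mRNA mean of 90.2 ± 106 CPM (n = 3) therefore rests on a library with no count for the gene, the one that lacks 52.7% of the abundant genes. The difference in mRNA between L2427P and C1483Y was -1.37 (log2, SE 1.22, adjusted p = 1.0 by edgeR's quasi-likelihood test with Benjamini-Hochberg adjustment), and it was -0.76 without that library and -2.99 without L2427P replicate 1, the highest of the 3.

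Elavl2 encodes HuB, an ELAVL protein of neurons. In footprints it was 0.39, 204 and 119 CPM in WT, 144 and 209 CPM in C1483Y, and 203, 220 and 230 CPM in L2427P. Apart from WT replicate 1, which held 3 counts, the footprint libraries stayed within 119 to 230 CPM, a 1.93-fold range. Its mRNA was present in every library, at 170, 156 and 88.8 CPM in WT, 68.0, 163 and 128 CPM in C1483Y, and 188, 180 and 155 CPM in L2427P. The coefficient of variation over the 9 mRNA libraries was 28.7%, against a median of 78.7% for the 5000 abundant genes. The footprint difference of L2427P against WT was 1.02 (log2, SE 1.48), with adjusted p = 1.0 in edgeR's quasi-likelihood test, and it was 0.36 without WT replicate 1 and 1.96 without WT replicate 2.

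Elavl3 encodes HuC, a marker of postmitotic neurons. Its footprint level was 509, 188 and 155 CPM in WT, 274 and 461 CPM in C1483Y, and 488, 325 and 113 CPM in L2427P, and the constructs overlapped. The mRNA was 205, 307 and 44.2 CPM in WT, 217, 276 and 0 CPM in C1483Y, and 293, 228 and 0 CPM in L2427P. Both zeros fell in the replicate 3 libraries, which also lack 24.3% and 52.7% of the abundant genes. The footprint difference of C1483Y against WT was 0.20 (log2, SE 0.94), and its sign changed between settings, from -0.38 with the displaced library included to 1.72 (adjusted p = 0.0323 by edgeR) without the 6 libraries that lack the most abundant genes, a setting that leaves 1 footprint library each for WT and C1483Y and was added after the data were seen.

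Elavl4 encodes HuD, an ELAVL protein of postmitotic neurons that stabilises mRNAs of axon growth. Of the 9 genes it had the most mRNA libraries at 3 or fewer counts. Its mRNA was 0, 43.0 and 122 CPM in WT, 55.7, 0.0393 and 0 CPM in C1483Y, and 57.1, 0.0537 and 0 CPM in L2427P. Thus 5 of 9 mRNA libraries held 2 counts or fewer: WT replicate 1 and replicates 2 and 3 of each mutant construct. Its footprints were 0.130, 137 and 144 CPM in WT, 515 and 145 CPM in C1483Y, and 229, 108 and 127 CPM in L2427P, and were thus missing only in WT replicate 1. Both C1483Y footprint values lay above all 3 WT values, the higher one in a library with 35.1% of the abundant genes at 3 or fewer counts. The difference was 1.94 (log2, SE 1.53, adjusted p = 0.817 by edgeR), and it was 0.66 without C1483Y replicate 1.

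Fmr1 encodes FMRP, the protein lost in fragile X syndrome, which represses translation of neuronal mRNAs. In footprints it was 130, 73.6 and 56.5 CPM in WT, 0.0422 and 230 CPM in C1483Y, and 93.8, 102 and 54.7 CPM in L2427P. The lowest of the 8 footprint values, 1 count in replicate 1, and the highest were both from C1483Y, whose mean was 115 ± 163 CPM (n = 2). Its mRNA was 34.8, 39.7 and 90.4 CPM in WT, 57.1, 80.2 and 38.4 CPM in C1483Y, and 77.7, 106 and 0 CPM in L2427P. The constructs overlapped in both assays, and the zero was in mRNA L2427P replicate 3.

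Fxr1 and Fxr2 encode the autosomal relatives of FMRP, which bind RNA and polyribosomes as FMRP does. Fxr1 footprints were 48.9, 65.7 and 188 CPM in WT, 327 and 103 CPM in C1483Y, and 8.88, 47.4 and 101 CPM in L2427P. With a 36.8-fold range above 3 counts, Fxr1 varied most among the 9 in footprints, and its L2427P libraries all lay below both C1483Y libraries. That difference was -2.17 (log2, SE 2.25, adjusted p = 1.0 by edgeR), and it was -0.61 without the 6 libraries that lack the most abundant genes. Fxr1 mRNA was 0, 59.8 and 85.3 CPM in WT, 47.9, 153 and 242 CPM in C1483Y, and 58.4, 88.3 and 227 CPM in L2427P, with the zero in WT replicate 1. The Fxr1 locus overlaps Dnajc19 in the annotation, which reached 1788 counts, and whether the counting used strand is not given in the sources used here. Fxr2 footprints were 0.130, 399 and 148 CPM in WT, 394 and 74.3 CPM in C1483Y, and 212, 146 and 170 CPM in L2427P, and its mRNA was 0, 135 and 156 CPM in WT, 116, 220 and 290 CPM in C1483Y, and 237, 69.5 and 117 CPM in L2427P. In both assays WT replicate 1 lacked Fxr2, and the other libraries of the 3 constructs overlapped. The smallest p among the 9 for mRNA of C1483Y against WT was that of Fxr2, whose difference was 0.93 (log2, SE 1.53, adjusted p = 1.0 by edgeR), and it was 0.34 without WT replicate 1 and 1.41 without WT replicate 3.

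Pum2 encodes a Pumilio protein that represses mRNAs with a Pumilio element, in neurons also in dendrites. Its mRNA had the lowest coefficient of variation of the 9, 27.9% over the 9 libraries. It was at 177, 127 and 171 CPM in WT, 139, 169 and 209 CPM in C1483Y, and 241, 155 and 290 CPM in L2427P. No mRNA library lacked it, and the constructs overlapped. Its footprints were less even, at 25.9, 53.8 and 191 CPM in WT, 274 and 105 CPM in C1483Y, and 42.4, 254 and 239 CPM in L2427P. Over the 8 footprint libraries the coefficient of variation was 69.4%, below the median of 89.4% for the abundant genes, and the constructs overlapped.

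Celf1 encodes CUGBP1, a protein that binds GU-rich elements and promotes decay or changes splicing and translation of its targets. Its footprint level was 258, 225 and 362 CPM in WT, 0.0844 and 187 CPM in the tested C1483Y libraries, and 271, 241 and 236 CPM in L2427P. In C1483Y replicate 3, whose rows before the displacement hold Celf1, the level was 247 CPM, within the range of the other constructs. Leaving aside C1483Y replicate 1, with 2 counts, the tested footprint libraries stayed within 187 to 362 CPM, a 1.94-fold range. Celf1 mRNA had a coefficient of variation of 99.0% over all libraries, against 46.3% in footprints, and was at 9.52, 172 and 58.5 CPM in WT, 136, 34.9 and 0 CPM in C1483Y, and 157, 53.9 and 0 CPM in L2427P, with the zeros in replicate 3 of each mutant construct. Both tested C1483Y footprint values lay below all WT values, with a difference of -1.65 (log2, SE 1.32, adjusted p = 0.831 by edgeR). That difference was -1.17 with the third C1483Y library included for the rows before the displacement, and -0.78 without C1483Y replicate 1. Without C1483Y replicate 2 the fitted value was -11.57 with adjusted p = 0.0047 (edgeR), which then rests on the 2 counts of replicate 1 and depends on the prior count of the fit.

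**Figure D2:**
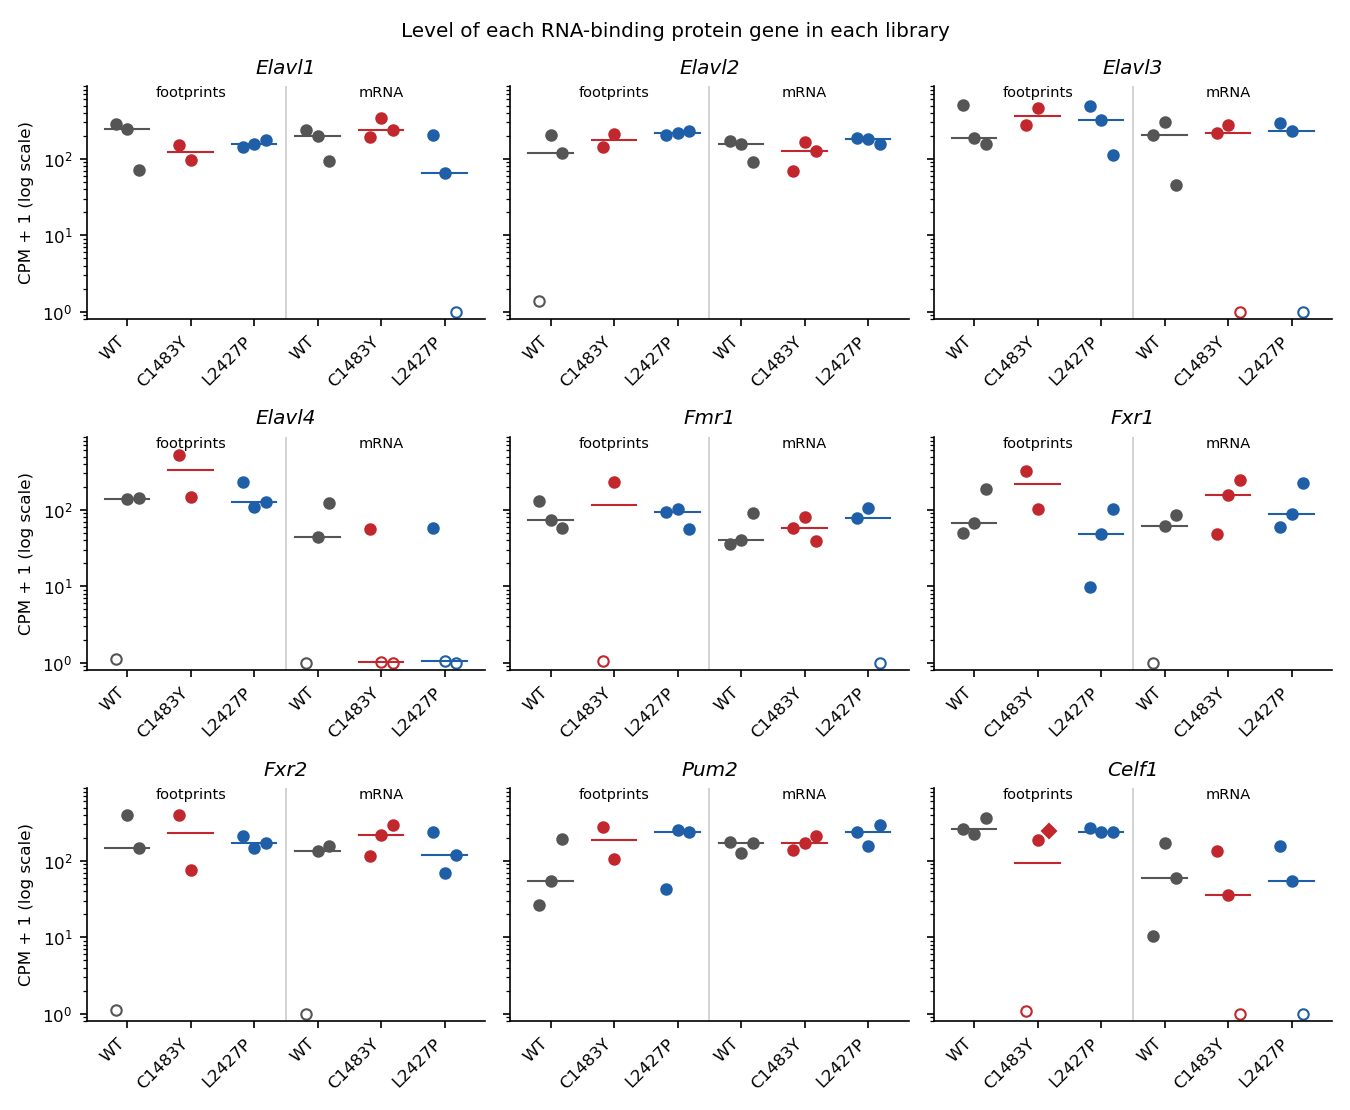
CPM + 1 on a log axis for each of the 9 genes in each library, with footprints on the left and mRNA on the right of each panel and the constructs on the x axis. Circles are libraries, open where the gene had 3 or fewer counts, lines are group medians of the tested libraries, and the diamond is the Celf1 value of footprint library C1483Y replicate 3, which was not tested. Open circles lie near 1 while the filled circles of the same gene are mostly around 100.

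Between constructs, none of the 9 genes passed edgeR's quasi-likelihood test (adjusted p under 0.05 over all genes tested) in mRNA, in footprints or in translational efficiency, the footprint change beyond the mRNA change. None had an unadjusted p under 0.05 in any of these 9 comparisons, and DESeq2's Wald test called none. Few genes of any kind were called. In mRNA, 0.0% of 9558 genes were called for C1483Y against WT and for L2427P against WT and 0.0105% for L2427P against C1483Y, in footprints 0.0% of 10315 in each comparison, and in translational efficiency 0.0% of 8876 in each. Over all genes edgeR gave 131 to 454 genes at an unadjusted p under 0.05, and DESeq2 called 172 to 875. The count of 0 among the 9 is therefore no result about these genes.

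The standard errors, each worked out from a log2 difference and the F statistic of its test, show roughly what this test could have seen. For most of the 9 genes the test took its spread mainly from all genes tested, so these errors are not the spread of the gene itself. Pum2 had an SE of 1.21 in mRNA of C1483Y against WT, although its mRNA coefficient of variation was 27.9%. For the 9 genes they ran from 1.20 to 3.61 on the log2 scale in mRNA and from 0.84 to 2.50 in footprints. The 95% interval of Elavl3 in footprints of L2427P against WT, -1.75 to 1.56, was the narrowest of the 9 in that comparison, and it still holds changes of more than 2-fold in either direction. A missed threshold does not show that levels were alike. The median difference of the 9 genes was 0.03, 0.14 and 0.06 in mRNA (C1483Y against WT, L2427P against WT and L2427P against C1483Y), beside -0.05, -0.28 and -0.21 for all genes. In footprints it was 0.46, -0.10 and -0.30, beside -0.16, 0.32 and 0.55. The comparisons share libraries, so these medians are not independent of each other.

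Groups without overlap were counted beside the share of all genes tested that had the same. In the tested footprint libraries of C1483Y against WT, 1 of the 9 lay above without overlap (Elavl4, against 6.61% of all genes) and 1 below (Celf1, against 4.93%). For L2427P against C1483Y it was 1 above (Celf1, against 13.9%) and 1 below (Fxr1, against 4.8%). For L2427P against WT it was 0 in either direction (against 6.97% and 1.65%). Footprint C1483Y replicate 3, usable for Celf1 but not tested, held it at 247 CPM. That is above WT replicate 2 (225 CPM) and L2427P replicates 2 and 3 (241 and 236 CPM). With this library Celf1 overlaps in both comparisons that involve C1483Y. In mRNA the constructs overlapped for all 9 genes in all 3 comparisons, where the shares of all genes above and below without overlap were 3.15% and 4.67% (C1483Y against WT), 2.18% and 6.25% (L2427P against WT) and 2.0% and 4.88% (L2427P against C1483Y). With a Celf1 difference of 1.37 (log2, SE 1.31, adjusted p = 1.0 by edgeR), the footprint comparison of L2427P with C1483Y includes the same C1483Y library with 2 counts, and the difference was 0.38 without it.

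**Figure D3:**
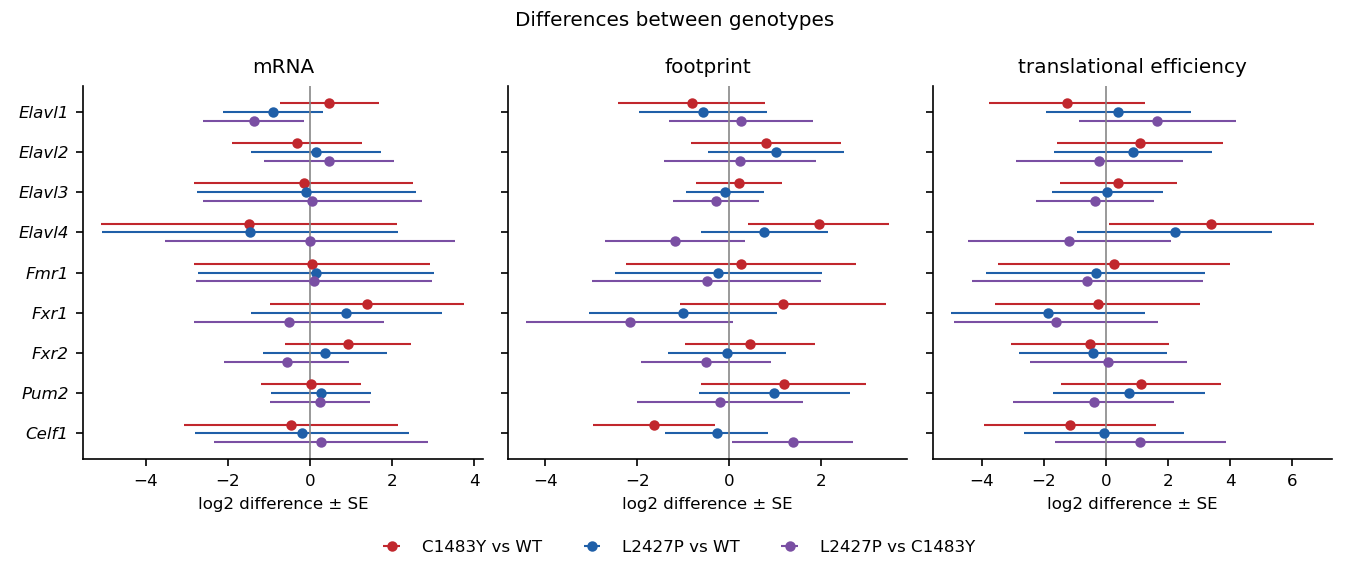
Differences between constructs in mRNA (left), footprints (middle) and translational efficiency (right) for each of the 9 genes, as log2 values from edgeR with bars of 1 SE. Red is C1483Y against WT, blue L2427P against WT and purple L2427P against C1483Y. No value passed the test, and the mRNA standard errors reach 3.61 for Elavl4.

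Translational efficiency differences of the 9 genes were even less certain, with standard errors of 1.79 to 3.72. Elavl4 had the smallest p in both mutant comparisons with WT, at 3.40 (log2, SE 3.30) for C1483Y and 2.21 (SE 3.13) for L2427P, with adjusted p = 1.0 in edgeR's test for both. Across alternatives the first ran from 1.09 without the 6 libraries that lack the most abundant genes to 13.06 without mRNA C1483Y replicate 1, and the second from 0.67 without the same 6 to 11.74 without mRNA L2427P replicate 1. Elavl1 had it for L2427P against C1483Y, at 1.66 (SE 2.52, adjusted p = 1.0 by edgeR), with 1.05 to 3.20 across alternatives. In each of these comparisons at least 1 mRNA library of the groups compared had no count for the gene.

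Footprints relative to mRNA within a construct were higher rather than lower for most of the 9 genes, without passing the test. As the ratio of the group means in CPM, Celf1 was at 3.51 in WT, 1.64 in C1483Y and 3.54 in L2427P. Elavl4 was at 1.70, 17.8 and 8.10, where the mutant mRNA means come from 1 library each. Elavl3 was at 1.53, 2.24 and 1.78 and Fmr1 at 1.58, 1.97 and 1.37. These 4 genes had a ratio of means above 1 for every construct, as did Fxr2 at 1.88, 1.12 and 1.25. For Elavl3 in WT the direction turned with medians, to 0.916 (188 against 205 CPM), with WT footprint replicate 1 at 509 CPM. For Elavl1 (1.15, 0.484 and 1.75), Elavl2 (0.779, 1.48 and 1.25), Fxr1 (2.09, 1.45 and 0.421) and Pum2 (0.570, 1.1 and 0.779) the ratio lay on both sides of 1. Both assays are scaled to their own library totals, so a ratio is relative to the other genes and is no count of ribosomes per mRNA.

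The 3 Celf1 footprint values lay above all 3 mRNA values in WT and in L2427P. In WT Celf1 was the only one of the 9 to do so (against 5.75% of all genes), and the difference was 1.91 (log2, SE 1.88, adjusted p = 1.0 by edgeR), with 1.35 to 3.19 across alternatives. In L2427P Elavl2, Elavl4 and Celf1 did so (3 of 9, against 11.3%), with 1.85 (SE 1.88, adjusted p = 1.0) for Celf1 and 3.00 (SE 2.36, adjusted p = 1.0) for Elavl4 in edgeR's test. In mRNA L2427P replicate 3 both genes were at 0, and across alternatives the values ran from 1.18 to 3.31 for Celf1 and from 2.00 to 12.50 for Elavl4, the highest of each without mRNA L2427P replicate 1. In C1483Y Elavl4 footprints lay above its mRNA (against 9.4%) and Elavl1 footprints below (against 15.0%), and Elavl4 reached 4.19 (log2, SE 2.59, adjusted p = 0.773 by edgeR), with 2.41 to 13.84 across alternatives, the highest without mRNA C1483Y replicate 1. Over all 8 footprint and 9 mRNA libraries the assays overlapped for each of the 9 genes.

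Averaged over the 3 constructs, edgeR's quasi-likelihood test called 0 of the 9 genes, with 0 at an unadjusted p under 0.05 and 0 by DESeq2, beside 2.79% of 8876 genes (1.67% with more footprints and 1.13% with fewer). Within single constructs it also called 0 of the 9, against 0.665% of all genes in WT (0.169% with more footprints and 0.496% with fewer), 0.259% in C1483Y (0.124% and 0.135%) and 0.518% in L2427P (0.259% and 0.259%). Elavl4 came nearest, at 2.66 (log2, SE 1.37, unadjusted p = 0.0522 and adjusted p = 0.361 by edgeR). It passed (5.83, adjusted p = 0.0462 by edgeR) without mRNA L2427P replicate 1, the only L2427P mRNA library with Elavl4 above 3 counts, and it was 5.86 (adjusted p = 0.0528) without mRNA C1483Y replicate 1, the only such C1483Y library. Celf1 was at 1.51 (log2, SE 1.1, adjusted p = 0.562 by edgeR), and it turned to -1.82 without footprint C1483Y replicate 2. Elavl3 was at 1.00 (log2, SE 0.76, adjusted p = 0.586 by edgeR). The median of the 9 genes was 0.64, with 8 of the 9 above 0, beside -0.32 for all genes. The median of all genes itself moved between -0.47 with library totals and -0.18 with DESeq2's size factors. Relative to it the 9 genes' median was 0.94 higher in the first case and 0.97 higher in the second. The share of all genes above 0 is not given here, and all genes are not matched to the 9 for abundance. The count above 0 and the medians are therefore a description only.

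**Figure D4:**
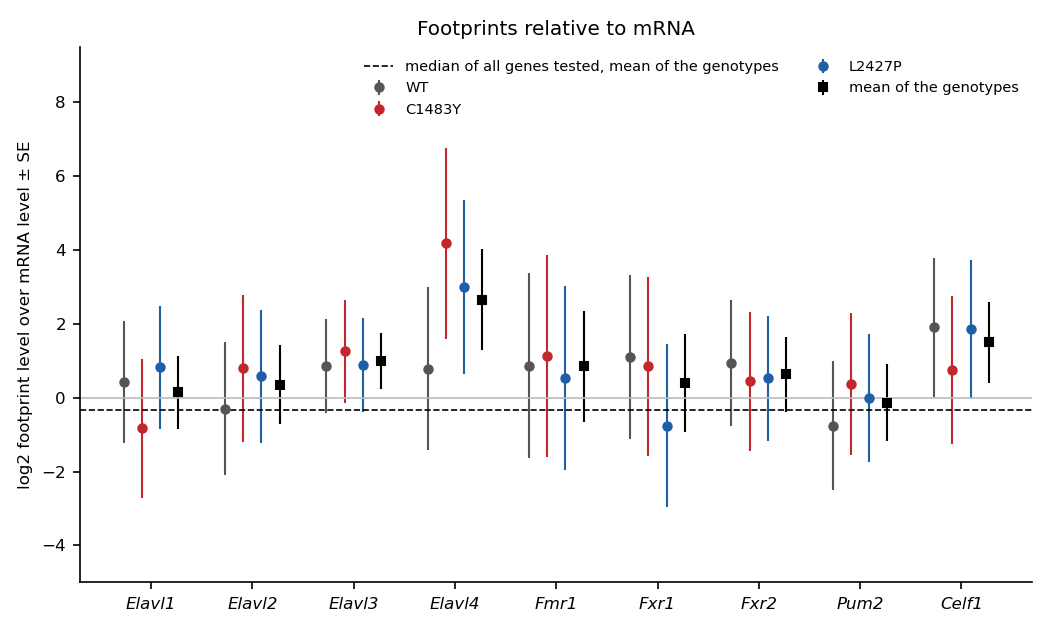
Footprint level over mRNA level for each of the 9 genes, as log2 values from edgeR with bars of 1 SE, in WT (grey), C1483Y (red), L2427P (blue) and averaged over the constructs (black squares). The dashed line is the median of all genes for the average, at -0.32. The averages of 8 of the 9 genes lie above 0, and those of Elavl4 and Celf1 are the highest.

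The 9 genes were set beside 5 further lists of relatives, partners and targets. The other CELF and Pumilio genes (6 tested), partners of FMRP in messenger ribonucleoprotein particles (18 or 19 tested), other neuronal RNA-binding proteins (26 to 29 tested), known target mRNAs of FMRP (26 or 27 tested) and known target mRNAs of ELAVL proteins (11 to 13 tested) held 0 genes called by edgeR in any of the 9 comparisons between constructs. At an unadjusted p under 0.05 a list held at most 3 genes in a comparison, and DESeq2 called at most 2. Over all genes tested (8876 to 10315), edgeR called 0.0% to 0.0105%, 131 to 454 genes had an unadjusted p under 0.05, and DESeq2 called 172 to 875. The list counts are therefore no result about the lists.

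Footprints relative to mRNA, averaged over the constructs, passed the test for some genes of every one of these lists, all with more footprints. Among the FMRP targets it was 6 of 26, with a list median of 1.41 (log2) beside -0.32 for all genes and 1.67% of all genes called in that direction. The lists were chosen with earlier results of these data known, and the share of all genes is not matched for abundance, so these counts are a description only. Map1b, which encodes a microtubule-associated protein of growing axons, had 4861 to 7437 CPM in the 8 footprint libraries (median 6507) and 484 to 1283 CPM in the 9 mRNA libraries (median 537). No mRNA value reached the lowest footprint value, as for 1.12% of all genes. The difference was 3.57 (log2, SE 0.18, adjusted p = 1.79e-81 by edgeR), and it passed in all 27 alternatives, at 3.34 to 3.75. The others were Dync1h1, the heavy chain of cytoplasmic dynein, at 1.72 (SE 0.31, adjusted p = 4.22e-06), App, the amyloid precursor protein gene, at 1.54 (SE 0.37, adjusted p = 0.00239), Ubr4, a ubiquitin ligase gene, at 2.1 (SE 0.60, adjusted p = 0.0208), Pclo and Huwe1, all by edgeR. Leaving out 1 of the 17 libraries ended the call of Ubr4 in 7 cases, of Pclo in 9 and of Huwe1 in 11. The list kept 3 calls without any of 5 single libraries: footprint L2427P replicate 2 or 3, mRNA WT replicate 1 or 3, or mRNA C1483Y replicate 1. TMM scaling within each assay also left 3 calls, with adjusted p = 0.0849 for Ubr4, 0.0598 for Pclo and 0.165 for Huwe1 by edgeR.

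Of the CELF and Pumilio relatives 1 of 6 passed, Celf2, the closest relative of Celf1, at 2.35 (log2, SE 0.41, adjusted p = 1.34e-06 by edgeR). Its footprints were 644 to 2237 CPM and its mRNA 17.2 to 390 CPM, without overlap, as for 1.12% of all genes in that direction. Within single constructs edgeR called it in WT (against 0.169% of all genes with more footprints) but not in C1483Y (adjusted p = 0.707) or L2427P (adjusted p = 0.262). Of the other neuronal RNA-binding proteins 2 of 26 passed. Of these Khdrbs1, which encodes the splicing regulator Sam68, was at 2.18 (SE 0.43, adjusted p = 5.72e-05 by edgeR). Among the FMRP partners 1 of 18 passed, Caprin1, a gene of RNA granules, at 1.67 (SE 0.45, adjusted p = 0.0123 by edgeR), and the call was lost without footprint WT replicate 2, footprint L2427P replicate 3, mRNA WT replicate 1 or mRNA C1483Y replicate 3 (adjusted p of 0.0536 to 0.0695). Among the ELAVL targets 1 of 11 passed, Actb, at 0.47 (SE 0.13, adjusted p = 0.0207 by edgeR), and the call was lost in 12 of 17 cases when a single library was left out. TMM scaling within each assay ended the calls of both Caprin1 (adjusted p = 0.0744 by edgeR) and Actb (adjusted p = 0.38). The list medians were 1.58 for the relatives, 0.79 for the other RNA-binding proteins, 0.64 for the FMRP partners and 0.91 for the ELAVL targets, beside 0.64 for the 9 genes and -0.32 for all genes. The calls of Dync1h1, App, Celf2 and Khdrbs1 were each lost in 1 alternative, with the displaced library included as deposited.

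**Figure D5:**
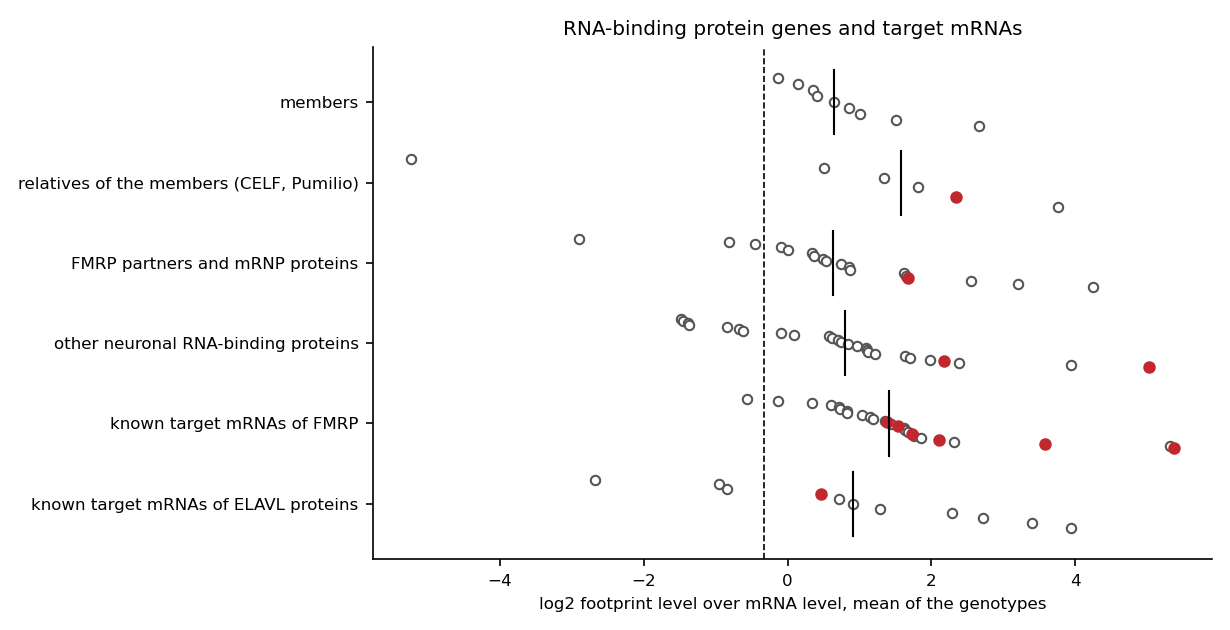
Footprint level over mRNA level averaged over the constructs (x axis, log2, edgeR) for the 9 genes and 5 related lists. Each circle is a gene, filled red where adjusted p is under 0.05, vertical bars are list medians, and the dashed line is the median of all genes at -0.32. None of the 9 is red, and the FMRP targets hold the most red circles, 6 of 26.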

How the data were processed

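The authors deposited 1 table of values per gene symbol for each of the 18 libraries. Of these, 17 hold whole-number counts as deposited, and footprint C1483Y replicate 3 holds deposited values that were treated as estimated counts and rounded, since 165 were not whole. Per the submitters' processing notes, Bowtie 1.1.2, TopHat2 2.1.1, HTSeq and the build mm10 were used. The step each tool served, the gene models and any use of strand are not given in the sources consulted. Names turned into dates (27, with 0.172% to 0.267% of footprint and 0.0935% to 0.328% of mRNA counts) and the summary rows were left out. Where the summary rows are filled and not displaced, between 21.9% and 29.6% of footprint and 50.0% and 77.5% of mRNA counts in a table, summary rows included, were not uniquely aligned.

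The 9 genes and all other lists were chosen with earlier results of these data known. The 9 are always named. Of the other lists, called genes are named, at most 4 per list and comparison by smallest p, and the remaining called ones by name only. Results of some genes that these rules pick are not reported here. Genes were kept by filterByExpr with a minimum count of 10, scaled by TMM factors and fitted across all genes with edgeR 4.0.16 (quasi-likelihood, R 4.3.3, limma 3.58.1), with 1 fit for mRNA, 1 for footprints and 1 for both assays (translational efficiency is the interaction), and Benjamini-Hochberg adjustment at 0.05. The displaced library was left out, which departs from the planned fit of all libraries, and no levels per transcript length were computed. Alternatives were DESeq2 1.42.0, other scalings and filters, a replicate block, the displaced library included and each library left out. The added setting without the 6 libraries in which over 20% of the 5000 most abundant genes had 3 or fewer counts was chosen after seeing the data. The procedure was tested on simulated counts that had the same spread setting for every gene and no added missing genes. That test does not show how the procedure performs on the many values near 0 found here. The likeness of 2 genes is Pearson's r of log2(CPM + 1), centred within each assay. The labels mention no molecular identifiers, so counted reads are not independent molecules.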

Additional observations from a re-analysis of the deposited data

How the results depend on the processing

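The count of called genes among the 9 stayed at 0 in all 13 comparisons under every alternative except 3, which gave 4 counts of 1. It was 1 for footprints of C1483Y against WT (Celf1) and of L2427P against C1483Y (Celf1, 11.17, adjusted p = 0.0073 by edgeR) without footprint C1483Y replicate 2, 1 for footprints over mRNA averaged over the constructs (Elavl4) without mRNA L2427P replicate 1, and 1 for footprints of C1483Y against WT (Elavl3) without the 6 libraries that lack the most abundant genes. Leaving out 1 library thus gave 0 to 1 called genes. Of 2572 alternative values of the 9 genes, 227 (8.83%) had the other sign than the reported value, and 45 of 117 values of a gene in a comparison kept their sign in all. The footprint difference of Elavl3 between C1483Y and WT (0.20) reversed to -0.0754 with DESeq2's Wald test and with its size factors, to -0.0216 with a replicate block and to -0.38 with the displaced library included, and it ran from -0.23 to 1.27 without single libraries; the cause was not tested. Celf1 over all constructs (1.51) ran from -1.82 to 2.09 without single libraries. Same-numbered libraries did not deviate together (r of -0.0566 to 0.0526 within an assay over 16 pairs, and -0.00626 to 0.0209 between assays over 8 pairs), so the numbers were taken as names only. No replicate block changed a call among the 9. In the related lists the block ended the call of Huwe1 (adjusted p = 0.0502 by edgeR), and blocks of library pairs ended those of Caprin1 (0.305), Actb (1.0), Ubr4 (0.115), Pclo (0.287) and Huwe1 (0.144), which took the FMRP targets from 6 to 3 calls and the FMRP partners and the ELAVL targets from 1 to 0. Called genes over all constructs went from 248 to 226, and to 158 with blocks of library pairs. Over all genes the footprint comparison of C1483Y against WT had 0 calls, 153 without footprint C1483Y replicate 2 and 801 by DESeq2. Footprints over mRNA had 248 calls, 36 with the displaced library included as deposited, 382 without mRNA L2427P replicate 3 and 1617 by DESeq2. With the displaced library included for rows up to 5400, only Celf1 of the 9 could be tested. In the related lists the calls for footprints over mRNA ranged from 1 to 12 for the FMRP targets, 0 to 4 for the FMRP partners and for the other RNA-binding proteins, 0 to 3 for the relatives and 0 to 2 for the ELAVL targets. Values of the 9 genes at or near 0 occurred in libraries of 7695442 to 50923364 counts.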

Other observations

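Genes whose pattern over the 17 libraries was among the most like that of each of the 9 are given as a description, since both genes of a pair come from the same libraries with the same depth and missing genes. For Elavl1 they were Dnmt1, a DNA methyltransferase gene (r = 0.961), and Rps2, a ribosomal protein gene (r = 0.959). For Elavl2 they were Cnr1, the cannabinoid receptor gene (r = 0.975), and Flna, an actin cross-linker gene (r = 0.968), both above 3 counts in every library, including the 1 with 3 counts of Elavl2. For Elavl3 Farp1 (r = 0.926) is given, which was at 3 or fewer counts in the same 2 libraries as Elavl3. For Elavl4 they were Pigu (r = 0.942) and Aak1 (r = 0.920), low in 5 and 4 of the 6 libraries in which Elavl4 was low.

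For Fmr1 they were Tsg101 (r = 0.960) and Trim67 (r = 0.954), for Fxr1 Rdx, which encodes radixin (r = 0.925), and Dctn4, a dynactin subunit gene (r = 0.903), and for Fxr2 Ilk (r = 0.945) and Rcn2 (r = 0.924). For Pum2, the gene without a low library, they were the ephrin receptor gene Epha4 (r = 0.907) and Polr3k (r = 0.892), and for Celf1 Olfm1 (r = 0.955) and Ncoa6 (r = 0.937), low in the same 3 libraries as Celf1. Among the 9 themselves the closest pair was Fmr1 with Celf1 (r = 0.801), and both were low in footprint C1483Y replicate 1 and mRNA L2427P replicate 3. The values were compared over 8876 genes, and how much of each r comes from the libraries with missing genes was not tested.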
